A study of Mus musculus with 10 samples.

Results

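Transcripts of 10 genes of the AMP-activated protein kinase (AMPK) pathway and of the proteins that restrain mTORC1 were followed in mSCLC cells with and without stiripentol. The genes were taken by symbol from the 26335 rows of the deposited table, and all 10 had a row: Prkaa1, Prkaa2, Prkab1, Prkab2 and Prkag1, which encode AMPK subunits, Stk11, which encodes the kinase that activates AMPK, and Ddit4, Sesn1, Sesn3 and Deptor, which encode mTORC1 brakes. The mSCLC cells used are the study's mouse small cell lung cancer line from a primary lung tumour, not its line from a liver metastasis, grown after conditional deletion of Rb1 and Trp53 by intratracheal Adeno-Cre virus, so control and treated cells share these deletions and come from 1 line. The 5 control libraries are from cells given the solvent DMSO and the 5 stiripentol libraries from cells given 250 μM stiripentol, both for 48 h. Stiripentol is an antiseizure drug and a known inhibitor of lactate dehydrogenase, and the study asked how it acts on mitochondrial complex I. The age and strain of the source mouse are not given in the sources used here.

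AMPK is a heterotrimer of a catalytic α subunit, a scaffold β subunit and a nucleotide-binding γ subunit, and it senses a fall in cellular energy through AMP and ADP bound to the γ subunit. LKB1, the product of Stk11, phosphorylates the activation loop of the α subunit, and active AMPK switches on catabolism and restrains growth, in part by acting on TSC2 and Raptor to lower mTORC1 activity. Sestrins hold back the Rag branch of mTORC1 when leucine is scarce, REDD1 (the product of Ddit4) acts through the TSC complex, and DEPTOR binds mTOR itself. AMPK and mTORC1 activity depend on phosphorylation and binding of proteins, which transcript levels do not measure.

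Read totals recovered per library ranged from 22375625 to 65299372 in control, with control 5 lowest, and from 55015760 to 60670901 after stiripentol. The libraries of each group formed a pair of clusters. Controls 1 to 3 and stiripentol 3 to 5 were clusters of 3, controls 4 and 5 and stiripentol 1 and 2 were clusters of 2, and correlations over the genes tested were 0.983 to 0.997 within a cluster and 0.920 to 0.939 between the clusters of a group. The labels do not name these clusters, and a cluster of controls was set beside the stiripentol cluster of the same size, a matching the labels do not give. The study's methods describe replicates in general as independent biological samples, and neither they nor the labels say whether the libraries of this line came from separate cultures, so p-values measure the spread between these libraries, which may be technical. Of 8 neuroendocrine markers of small cell lung cancer, 5 had a row used here, of which Insm1 and Syp were under 1 CPM in every library, and the summed level was 93.4 to 120 CPM in control and 127 to 157 CPM in stiripentol libraries. Fibroblast markers summed to 317 to 511 CPM in control and 106 to 129 CPM in stiripentol libraries, epithelial markers to 2278 to 2598 and 1544 to 2145 CPM, and immune and endothelial markers to 4.36 to 18.3 and 55.9 to 103 CPM, with Ptprc, Pecam1 and Cdh5 under 1 CPM in every library. The rise of this last sum was that of its remaining gene, Cd68, whose mean went from 2.98 log2 CPM in control to 6.19 log2 CPM in stiripentol libraries. Markers of other small cell lung cancer lineages (Pou2f3, Avil and Yap1) summed to 149 to 178 CPM in control, 74.4 to 90.2 CPM in stiripentol 1 and 2 and 165 to 176 CPM in stiripentol 3 to 5. This sum hides opposite changes. From control to stiripentol the mean log2 CPM went from 0.31 to 5.32 in Avil, 7.33 to 6.45 in Yap1 and 0.99 to -2.53 in Pou2f3. The part of these markers in the results was not tested. In these bulk samples fewer cells of a type and less RNA per cell cannot be told apart. Rb1 was at 2.02 to 3.50 log2 CPM in control and 2.80 to 4.57 log2 CPM in stiripentol libraries, and Trp53 at -0.20 to 1.87 and -0.22 to 1.32, which checks nothing where reads fall outside the deleted exons.

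After stiripentol treatment Sesn1 and Prkaa1 fell and Prkaa2 rose. The other 7 genes did not pass the test. The test was limma on the deposited log2 CPM (reads scaled to the size of the library, on a log2 scale) with Benjamini-Hochberg adjustment over the 12306 genes with a mean above 0, and genes with an adjusted p below 0.05 are termed called. In that test 27.7% of all genes tested were called, 14.1% lower and 13.6% higher, so 3 called genes of 10 is a share near that background. The 3 called genes were also those whose control and stiripentol values did not overlap, against 27.2% of all genes tested in either direction, 14.3% with stiripentol lower and 13% with stiripentol higher. The median log2 change over the 10 genes was -0.22, beside -0.06 over all genes tested.

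**Figure D1:**
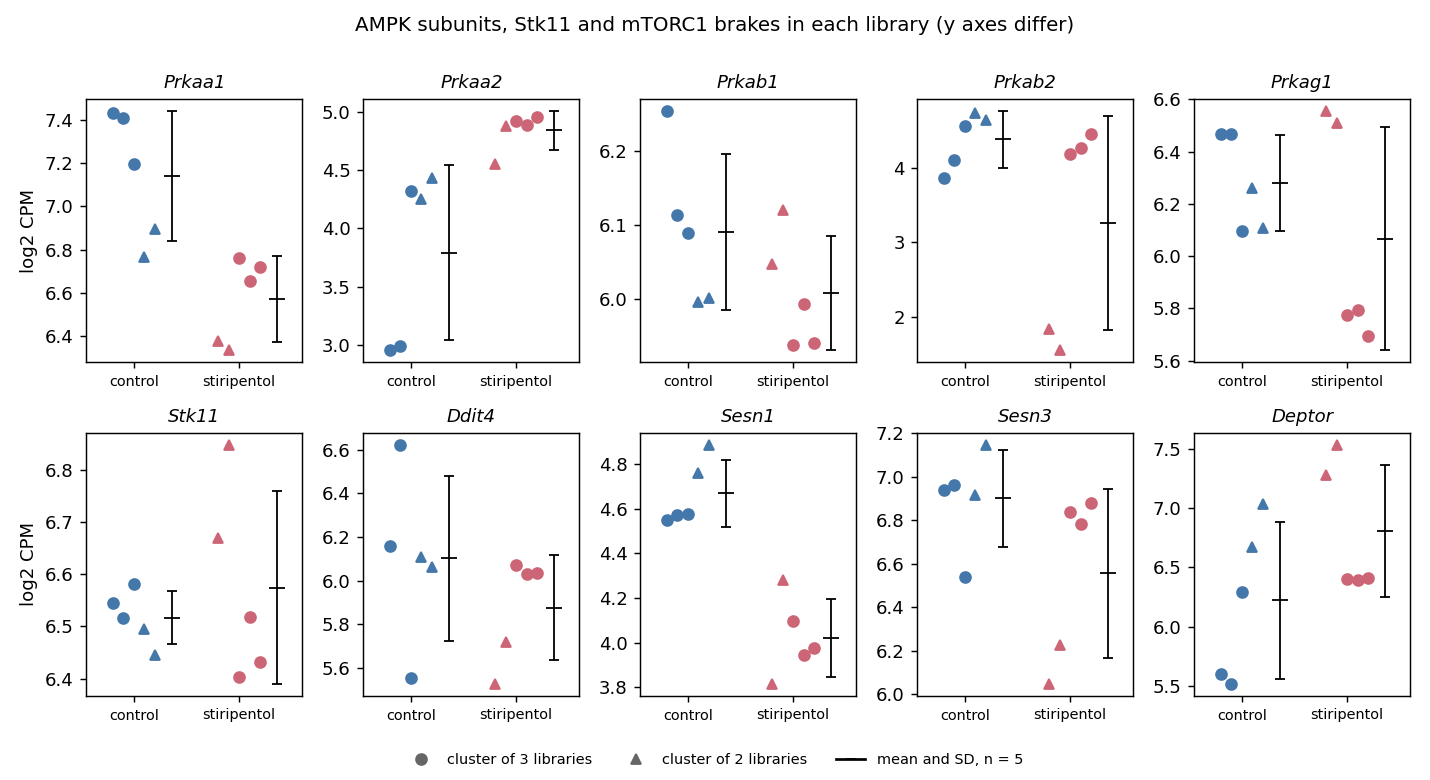
Level of each of the 10 genes in log2 CPM (y axis, scaled separately in each panel) in the 5 control and 5 stiripentol libraries, in order of replicate number; circles are libraries of the clusters of 3, triangles libraries of the clusters of 2, and bars are the mean and SD (n = 5). Prkaa1, Prkaa2 and Sesn1 have no overlap between the groups, and the triangles of Prkab2 in stiripentol, 1.84 and 1.55 log2 CPM, lie apart from all other libraries.

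The α subunit carries the kinase domain and exists as α1 (Prkaa1) and α2 (Prkaa2), which form alternative complexes. Prkaa1 lies on chromosome 15 (GRCm38, 5143861 to 5181899, plus strand) and Prkaa2 on chromosome 4 (105029874 to 105109890, minus strand). Since they are the pair of AMPK genes that changed, and in opposite directions, their start regions are shown here, with that of Sesn1, the remaining gene that changed. Each sequence is from RefSeq (GRCm38.p6), runs from 250 bases before the annotated start to 30 bases after it, and has its CG dinucleotides in capitals. They hold 49, 31 and 27 CG dinucleotides, in this order.
Prkaa1, chr15:5143611-5143890, plus strand: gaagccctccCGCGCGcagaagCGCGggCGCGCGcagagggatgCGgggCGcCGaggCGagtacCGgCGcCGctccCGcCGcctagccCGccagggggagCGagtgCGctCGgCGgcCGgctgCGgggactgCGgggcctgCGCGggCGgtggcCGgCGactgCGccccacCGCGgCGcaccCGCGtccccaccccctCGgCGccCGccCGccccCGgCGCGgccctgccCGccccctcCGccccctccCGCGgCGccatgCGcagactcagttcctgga
Prkaa2, chr4:105109869-105110148, minus strand: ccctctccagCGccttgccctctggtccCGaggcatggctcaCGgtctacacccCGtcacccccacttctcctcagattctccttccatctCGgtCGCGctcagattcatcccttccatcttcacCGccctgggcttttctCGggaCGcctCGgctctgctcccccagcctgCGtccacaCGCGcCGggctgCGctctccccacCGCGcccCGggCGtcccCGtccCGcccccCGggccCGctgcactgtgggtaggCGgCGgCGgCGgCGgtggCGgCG
Sesn1, second annotated start, chr10:41887189-41887468, plus strand: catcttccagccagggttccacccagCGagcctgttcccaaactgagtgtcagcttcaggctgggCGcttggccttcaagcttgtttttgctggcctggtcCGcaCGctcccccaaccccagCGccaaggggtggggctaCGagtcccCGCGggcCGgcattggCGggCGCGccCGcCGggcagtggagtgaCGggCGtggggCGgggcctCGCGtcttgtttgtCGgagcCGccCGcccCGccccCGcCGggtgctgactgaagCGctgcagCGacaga

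Prkaa1 was at 7.43, 7.41, 7.20, 6.77 and 6.89 log2 CPM in controls 1 to 5 and at 6.38, 6.34, 6.76, 6.66 and 6.72 log2 CPM in stiripentol 1 to 5. Every stiripentol library was below every control, although control 4 and stiripentol 3 nearly touched, and controls 1 to 3 were the highest. The mean went from 7.14 ± 0.30 to 6.57 ± 0.20 log2 CPM (SD, n = 5 each), a log2 change of -0.57 (SE 0.16, 95% interval -0.91 to -0.22) or a level 1.48-fold lower, with an adjusted p of 0.0225 (limma). The change was -0.63 between the clusters of 3 and -0.47 between the clusters of 2. Without control 1, 2 or 3 or stiripentol 2, limma gave adjusted p-values of 0.0559, 0.0564, 0.0510 and 0.0566, and against controls 4 and 5 alone the log2 change was -0.26 (adjusted p = 0.274).

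Prkaa2 was at 2.95, 3.00, 4.32, 4.25 and 4.43 log2 CPM in controls 1 to 5 and at 4.55, 4.88, 4.92, 4.89 and 4.95 log2 CPM in stiripentol 1 to 5. All treated libraries lay above all controls, and controls 1 and 2 stood far below control 3, with which they share a cluster. The mean rose from 3.79 ± 0.75 to 4.84 ± 0.16 log2 CPM (SD, n = 5 each), a log2 change of 1.05 (SE 0.31, 95% interval 0.36 to 1.74) or a level 2.07-fold higher (limma adjusted p = 0.0308). The values rest on 461 to 1771 reads. The rise was larger between the clusters of 3 (1.50) than between the clusters of 2 (0.37), and the difference passed the interaction test (-1.13, SE 0.45, limma adjusted p = 0.0483). That call was lost in 9 of 10 fits with a library left out, all but the fit without control 3 (adjusted p = 0.0670 to 0.164 in limma), and under quantile normalization (adjusted p = 0.187). Without control 1 or 2 the log2 change was 0.84 and 0.85 (limma adjusted p = 0.0641 and 0.0670), without stiripentol 2, 3, 4 or 5 the adjusted p was 0.0541 to 0.0629, and against controls 4 and 5 alone the log2 change was 0.49 (adjusted p = 0.0654).

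The balance of the α genes was read as the difference of their log2 CPM within a library, which does not depend on how a library was scaled and, between groups, not on gene length. Prkaa2 minus Prkaa1 was -4.48, -4.41, -2.88, -2.51 and -2.46 in controls 1 to 5 and -1.83, -1.46, -1.84, -1.77 and -1.77 in stiripentol 1 to 5. The stiripentol libraries were all higher and close to each other, and the controls were spread with controls 1 and 2 lowest. The mean difference moved from -3.35 ± 1.01 to -1.73 ± 0.16 (SD, n = 5 each), by 1.62 or 3.06-fold toward Prkaa2 (two-sided exact permutation test, p = 0.00794, the smallest that 252 arrangements can give, adjusted p = 0.0238 over the 3 gene pairs compared). Neither gene's groups overlapped and the genes moved in opposite directions, so this p had to be the smallest. It adds nothing to the tests of the separate genes. Between the clusters of 3 the mean difference moved by 2.13 and between the clusters of 2 by 0.84, and designs of that size cannot go below exact p-values of 0.1 and 0.333. Arranged within clusters the exact permutation test gave p = 0.0167, the smallest that 120 arrangements can give, with an adjusted p of 0.05. Without stiripentol 1, 2, 3, 4 or 5 the adjusted p of the permutation test was 0.0595 to 0.0714.

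**Figure D2:**
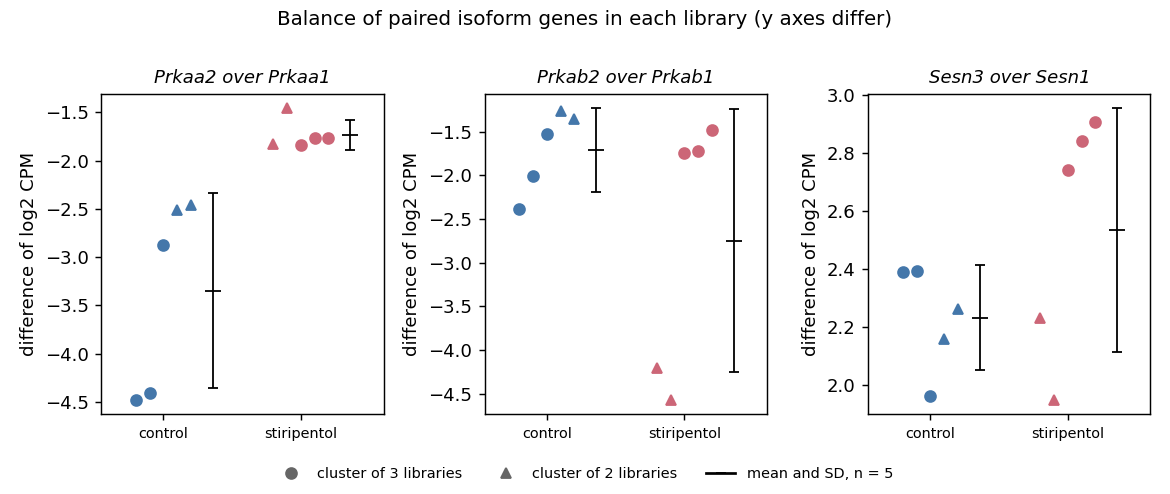
Difference of log2 CPM between the genes of 3 isoform pairs (y axis, scaled separately in each panel) in each control and stiripentol library; circles are libraries of the clusters of 3, triangles those of the clusters of 2, and bars are the mean and SD (n = 5). For Prkaa2 over Prkaa1 the stiripentol libraries, -1.84 to -1.46, lie above all controls, and for the other pairs the groups overlap.

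The β subunits join α to γ and carry a glycogen-binding region. Prkab1, which encodes β1, is on chromosome 5 (116013586 to 116024508, minus strand) and was at 6.25, 6.11, 6.09, 6.00 and 6.00 log2 CPM in controls 1 to 5 and at 6.05, 6.12, 5.94, 5.99 and 5.94 log2 CPM in stiripentol 1 to 5. The groups overlapped, and the log2 change was -0.08 (SE 0.09, 95% interval -0.29 to 0.12, limma adjusted p = 0.519).

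Prkab2, which encodes β2, is on chromosome 3 (97658193 to 97673812, plus strand) and was at 3.87, 4.10, 4.56, 4.74 and 4.65 log2 CPM in controls 1 to 5 and at 1.84, 1.55, 4.19, 4.27 and 4.45 log2 CPM in stiripentol 1 to 5. Stiripentol 1 and 2 were far below every other library, with 215 and 168 reads, whereas stiripentol 3 to 5 had 1053 to 1204 reads and lay within the range of the controls. The SD was 0.38 log2 CPM in control and 1.43 log2 CPM in stiripentol, and the log2 change over all libraries, -1.12 (SE 0.58, 95% interval -2.41 to 0.17), did not pass the test (limma adjusted p = 0.168). It was 0.13 between the clusters of 3 and -3.00 between the clusters of 2. This difference of -3.12 (SE 0.25) passed the interaction test (limma adjusted p = 2.43e-06). Prkab2 minus Prkab1 was -2.39, -2.01, -1.53, -1.26 and -1.35 in controls 1 to 5 and -4.21, -4.57, -1.75, -1.73 and -1.49 in stiripentol 1 to 5, a shift of -1.04 that did not pass the exact permutation test (p = 0.262, adjusted p = 0.262).

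Prkag1 encodes γ1, the nucleotide-binding subunit, and is on chromosome 15 (98812797 to 98831521, minus strand). It was at 6.47, 6.47, 6.10, 6.26 and 6.11 log2 CPM in controls 1 to 5 and at 6.55, 6.51, 5.77, 5.80 and 5.70 log2 CPM in stiripentol 1 to 5. The stiripentol libraries were both the highest (1 and 2) and the lowest (3 to 5) of the 10. The log2 change was -0.21 (SE 0.20, 95% interval -0.64 to 0.22, limma adjusted p = 0.426), with -0.59 between the clusters of 3 and 0.35 between the clusters of 2, and that difference of 0.94 passed the interaction test (SE 0.16, limma adjusted p = 0.000392). The antisense gene B130046B21Rik overlaps Prkag1 and had 27 to 369 reads, beside 1542 to 5769 reads for Prkag1. Whether reads were counted by strand is not given in the sources used here.

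Stk11 encodes LKB1, a tumour suppressor and the main kinase upstream of AMPK, and is on chromosome 10 (80115803 to 80130682, plus strand). It was at 6.54, 6.52, 6.58, 6.50 and 6.45 log2 CPM in controls 1 to 5 and at 6.67, 6.85, 6.40, 6.52 and 6.43 log2 CPM in stiripentol 1 to 5. Stiripentol 1 and 2 were the highest libraries and stiripentol 3 and 5 the lowest. The log2 change was 0.06 (SE 0.10, 95% interval -0.17 to 0.29, limma adjusted p = 0.697), with -0.10 between the clusters of 3 and 0.29 between the clusters of 2. Cbarp overlaps the end of Stk11 by 232 bases on the opposite strand and had 83 to 957 reads, beside 1949 to 6675 for Stk11.

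Among the brakes, Sesn1 was the gene that passed the test. Sestrin 1 binds leucine and, when leucine is lacking, holds back the activator of the Rag GTPases, and Sesn1 is a target gene of p53, whose gene Trp53 was deleted in the source tumour. Sesn1 is on chromosome 10 (41809935 to 41908424, plus strand) and was at 4.55, 4.57, 4.58, 4.76 and 4.89 log2 CPM in controls 1 to 5 and at 3.82, 4.28, 4.10, 3.95 and 3.97 log2 CPM in stiripentol 1 to 5. Each stiripentol library was below each control, with control 1 and stiripentol 2 nearest to each other. The mean fell from 4.67 ± 0.15 to 4.02 ± 0.17 log2 CPM (SD, n = 5 each), a log2 change of -0.65 (SE 0.14, 95% interval -0.95 to -0.34) or a level 1.56-fold lower, with a limma adjusted p of 0.00691 and 661 to 1719 reads behind the values. The change was -0.56 between the clusters of 3 and -0.78 between the clusters of 2, and the difference did not pass the interaction test (-0.22, SE 0.18, limma adjusted p = 0.310).

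Sesn3 encodes sestrin 3, a target of FOXO factors, and is on chromosome 9 (14275067 to 14333101, plus strand). It was at 6.94, 6.96, 6.54, 6.92 and 7.15 log2 CPM in controls 1 to 5 and at 6.05, 6.23, 6.84, 6.79 and 6.88 log2 CPM in stiripentol 1 to 5. Stiripentol 1 and 2 were below all other libraries and stiripentol 3 to 5 lay within the control range. The log2 change was -0.34 (SE 0.19, 95% interval -0.76 to 0.07, limma adjusted p = 0.185), with 0.02 between the clusters of 3 and -0.89 between the clusters of 2, a difference of -0.92 that passed the interaction test (SE 0.18, limma adjusted p = 0.00106). Sesn3 minus Sesn1 was 1.96 to 2.39 in control and 1.95 to 2.91 in stiripentol libraries, a shift of 0.30 that did not pass the exact permutation test (p = 0.175, adjusted p = 0.262). Between the clusters of 3 that shift was 0.58 and between the clusters of 2 it was -0.12.

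Ddit4, a stress-induced gene on chromosome 10 (59949669 to 59951834, minus strand), was at 6.16, 6.62, 5.55, 6.11 and 6.06 log2 CPM in controls 1 to 5 and at 5.53, 5.72, 6.07, 6.03 and 6.04 log2 CPM in stiripentol 1 to 5. Control 2 was highest and control 3 sat with stiripentol 1 at the low end, and the groups overlapped. The log2 change was -0.23 (SE 0.19, 95% interval -0.65 to 0.20, limma adjusted p = 0.391).

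Deptor, on chromosome 15 (55112317 to 55259271, plus strand), was at 5.60, 5.52, 6.29, 6.67 and 7.03 log2 CPM in controls 1 to 5 and at 7.28, 7.54, 6.40, 6.40 and 6.41 log2 CPM in stiripentol 1 to 5. Stiripentol 1 and 2 were the highest libraries, and stiripentol 3 to 5 lay below controls 4 and 5 and above controls 1 to 3. The log2 change was 0.58 (SE 0.34, 95% interval -0.17 to 1.34, limma adjusted p = 0.215). It was 0.60 between the clusters of 3 and 0.56 between the clusters of 2, and the clusters of 2 were higher than those of 3 by 1.05 in control and by 1.00 in stiripentol libraries. With a term for the library cluster the limma adjusted p of Deptor was 0.00879, in a fit that called 50.7% of all genes tested, and against controls 4 and 5 alone the log2 change was -0.05.

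The interaction test passed for 6 of the 10 genes, Prkaa2, Prkab1, Prkab2, Prkag1, Stk11 and Sesn3, against 63.3% of all genes tested, a share near that background. Leaving out each library in turn gave 4 to 7 genes. Prkab2, Prkag1, Stk11 and Sesn3 passed in all 10 of these fits, while Prkaa2 passed in 1 (without control 3) and Prkab1 in 3 (without control 2, control 3 or stiripentol 1). For Prkab1 the difference was 0.28 (SE 0.11, limma adjusted p = 0.0403) and for Stk11 it was 0.38 (SE 0.11, limma adjusted p = 0.0103). Prkaa1, Ddit4 and Deptor, like Sesn1, did not pass (limma adjusted p = 0.281, 0.290 and 0.899). Fitted alone, the clusters of 3 called 6 of the 10 genes (64.7% of all genes tested) and the clusters of 2 called 9 (72.2%). Their small spread is that of libraries correlated at 0.983 or more. Without matching clusters across groups, stiripentol 1 and 2 against all controls called Prkaa1, Prkab2, Sesn1, Sesn3 and Deptor, 5 of the 10 (51.3% of all genes tested), and stiripentol 3 to 5 against all controls called Prkag1 and Sesn1, 2 of the 10 (29.9%). Voom on the recovered reads of all libraries called Prkaa1, Prkaa2 and Sesn1 (29.5%).

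**Figure D3:**
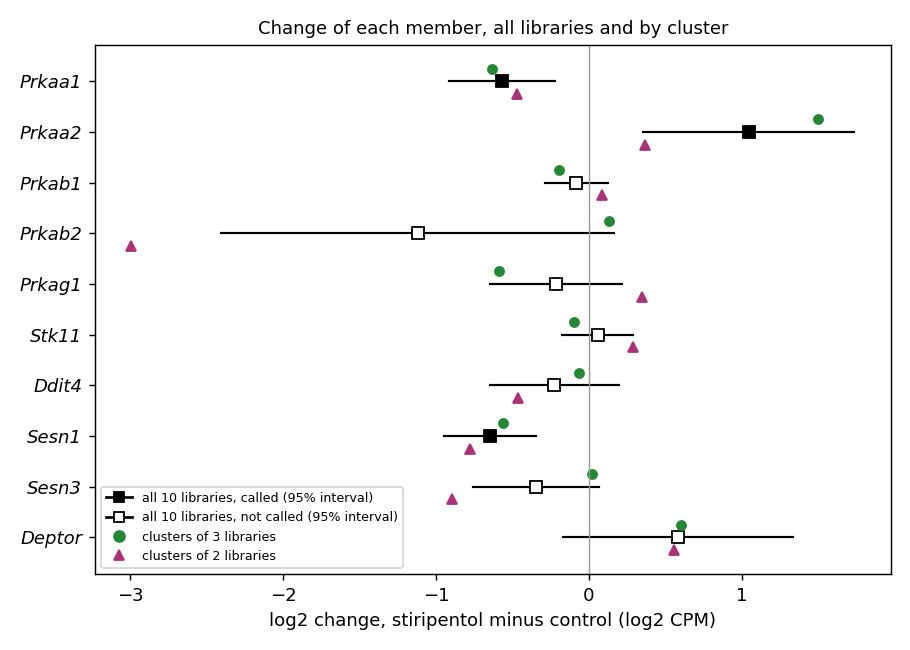
Log2 change of each gene (x axis, stiripentol minus control in log2 CPM); squares with 95% intervals are the fit over all 10 libraries, filled where called, circles the change between the clusters of 3 and triangles that between the clusters of 2. For Prkaa1, Prkaa2, Ddit4, Sesn1 and Deptor both cluster values have the sign of the overall change, and for Prkab2 they stand at 0.13 and -3.00.

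The wider pathway was read from 7 lists of genes, with 75 in the table and 71 tested, of which 5 fell and 11 rose, 22.5% of those tested beside 27.7% of all genes. Their median log2 change was -0.02. In the list of other γ subunits and upstream partners of AMPK, 3 of 8 rose and none fell, with a median of -0.16. Strada and Stradb, the pseudokinases that hold LKB1 in its active complex, rose by 0.56 (SE 0.16, limma adjusted p = 0.0282) and 0.54 (SE 0.16, limma adjusted p = 0.0297) on the log2 scale. Strada was at 4.49, 4.60, 4.46, 3.89 and 3.95 log2 CPM in controls 1 to 5 and at 4.80 to 4.90 log2 CPM in the stiripentol libraries, without overlap. Of 11 kinases related to AMPK that LKB1 also activates, 3 fell and 1 rose, with a median of -0.16. Mark1, a kinase of microtubule-binding proteins, fell by 1.93 (SE 0.34, limma adjusted p = 0.00300) and Nuak2, a kinase acting on the actomyosin machinery, fell by 1.26 (SE 0.20, limma adjusted p = 0.00173), while Mark4 rose by 0.65 (SE 0.20, limma adjusted p = 0.0313).

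Of 10 substrates of AMPK, 2 were called, with a median of -0.10. Crtc2, a coactivator of CREB, rose by 0.51 (SE 0.16, limma adjusted p = 0.0344). Of 17 genes of the mTORC1 core and its activators, 3 rose and none fell, with a median of 0.28. Rragd, a Rag GTPase that recruits mTORC1 to lysosomes, was at 2.05, 1.98, 3.14, 3.46 and 3.40 log2 CPM in controls 1 to 5 and at 4.56, 5.01, 5.05, 5.31 and 5.28 log2 CPM in stiripentol 1 to 5, a rise without overlap of 2.24 (SE 0.32, limma adjusted p = 0.00111). Lamtor5, a subunit of the lysosomal Ragulator, rose by 0.35 (SE 0.11, limma adjusted p = 0.0379). Mtor itself had a log2 change of -0.39 (limma adjusted p = 0.110).

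Of 13 other negative regulators of mTORC1, 1 fell and 1 rose, with a median of 0.04. Depdc5, a subunit of the GATOR1 complex that switches off the Rag branch, fell by 1.31 (SE 0.38, limma adjusted p = 0.0272), by 0.67 between the clusters of 3 and by 2.27 between the clusters of 2. Tsc1, which stabilizes TSC2, rose by 0.88 (SE 0.18, limma adjusted p = 0.00588), and Tsc2 had a log2 change of 0.04 (limma adjusted p = 0.772). Sesn2, the remaining sestrin, had a log2 change of 0.46 (SE 0.39, limma adjusted p = 0.396). Of 8 genes counted as mTORC1 outputs, 2 rose and none fell, with a median of 0.03. Eif4ebp1, the translational repressor that mTORC1 phosphorylates, rose by 1.07 (SE 0.14, limma adjusted p = 0.000573) and Tfe3, a lysosomal transcription factor, by 0.32 (SE 0.10, limma adjusted p = 0.0309). None of the 4 mTORC2 subunits was called by limma on log2 values or by voom on the recovered reads, 3 of them had an unadjusted p under 0.05, and their median was -0.57.

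**Figure D4:**
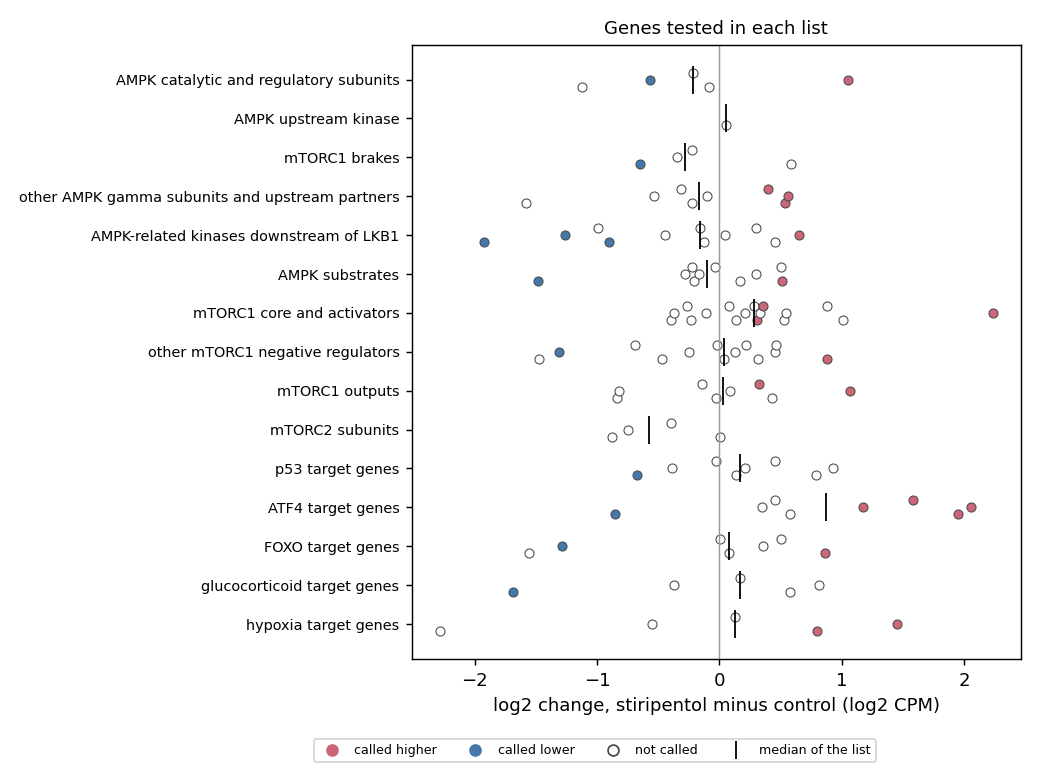
Log2 change (x axis, stiripentol minus control in log2 CPM) of every tested gene in the lists of the 10 genes, the pathway and the regulators' targets; red and blue points were called higher and lower, open points were not called, and a vertical tick is the median of the list. Called genes of both directions stand in several lists, with Rragd highest at 2.24 and Mark1 lowest at -1.93 among those called.

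Genes that share regulators with the 10 were read in the same way. Of 8 ATF4 targets, a stress-response group to which Ddit4 is also often assigned, 4 rose and 1 fell, with a median of 0.87. Sesn2, listed above among the negative regulators of mTORC1, was counted in this list and among the p53 targets. Atf3 rose by 2.06 (SE 0.36, limma adjusted p = 0.00271) and Ddit3, which encodes CHOP, by 1.95 (SE 0.17, limma adjusted p = 9.64e-05), both stress-induced transcription factors, while Atf5 fell by 0.86 (SE 0.24, limma adjusted p = 0.0237). Of 8 p53 targets 1 fell, Phlda3 (an Akt inhibitor, -0.67, limma adjusted p = 0.0401), with a median of 0.17. Of 7 FOXO targets, Irs2, an insulin receptor substrate, fell (-1.28, limma adjusted p = 0.0209) and Bcl6, a transcriptional repressor, rose (0.86, limma adjusted p = 0.0419), with a median of 0.08. Of 5 glucocorticoid targets 1 fell, the kinase gene Sgk1 (-1.69, limma adjusted p = 0.00567), with a median of 0.17. Of 5 hypoxia targets 2 rose, Car9, a carbonic anhydrase (1.45, limma adjusted p = 0.0184), and Ndrg1 (0.80, limma adjusted p = 0.0105), with a median of 0.12.

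The genes whose log2 CPM followed the called genes most closely over the 10 libraries are a description, since the libraries share groups and clusters. For Prkaa1 they were Ddx3x, an RNA helicase (r = 0.997), Rbm12, an RNA-binding protein (r = 0.994), and 1810022K09Rik (r = 0.993), and 753 genes had r above 0.9. For Prkaa2 they were Atp6v0a1, a subunit of the vacuolar proton pump (r = 0.984), Dnajb9, a chaperone of the endoplasmic reticulum (r = 0.984), and Ubr3, a ubiquitin ligase (r = 0.983), with 211 genes above 0.9. For Sesn1 they were Fam89a (r = 0.975), Nuak1, itself a kinase related to AMPK (r = 0.964), and Ermp1 (r = 0.962), with 143 genes above 0.9. Nuak1 had a log2 change of -0.91 (SE 0.13, limma adjusted p = 0.00107). For Prkab2, added after its values were seen, they were Cadm1 (r = 0.991), Zfp810 (r = 0.987) and Hmgcll1 (r = 0.987), with 1146 genes above 0.9.

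RefSeq promoters, from 250 bases before to 50 bases after the start, were matched for 9 of the 10 genes, with Deptor unmatched. They held 16 to 52 CG dinucleotides, lowest in Prkag1 and highest in Prkaa1, beside a median of 7 over 32851 promoters, and their GC content was 54.7% to 82%, beside a median of 52.7%. As many CG dinucleotides as in Prkaa1 were found in 0.575% of all promoters, as many as in Prkaa2 in 6.95% and as many as in the second Sesn1 promoter in 10.6%. The letters of 7 motifs, none of which contains another, were searched on both strands. CCAAT stood in the promoters of Ddit4, Prkag1, Sesn1, Sesn3 and Stk11 and in 37.4% of all promoters, and TGTTTAC, a FOXO site, in those of Sesn1 (the other start, not printed) and Stk11 and in 3.65% of all promoters. TGATGNAA (ATF4 with C/EBP), TGACGTCA (cyclic AMP response element), CACGTG (E-box), the NRF1 site and GCGTGGGCG (EGR1) stood in none of the 9 genes' windows, and in 3.97%, 1.79%, 7.15%, 0.971% and 0.612% of all promoters. The windows of Prkaa1, Prkaa2, Prkab1 and Prkab2 held none of the 7 motifs.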

How the data were processed

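RNA of 10 libraries of mSCLC cells, the line from a primary lung tumour, was analysed from 1 table of log2 CPM per gene and library that the authors deposited. Their methods name GENAVi for normalization, the submitters' processing notes name mm10, and the aligner, annotation and strand of counting are not given in the sources used here. The methods and the labels name different library kits, QuantSeq and TruSeq total RNA, so how reads spread along a gene is not settled. The table also holds the authors' group means, p-values, q-values and ratios, which were not used. Every value gave whole reads (100% within 0.1 read) once a prior of 0.837 to 2.38 reads was taken off. A gene without reads sat at -4.82 in controls 1 to 3 and at -4.74 in the other 7 libraries, so the prior in CPM differed between the clusters of controls. Reads per CPM followed the read total, for example 65.3 for 65299372 reads in control 1 and 22.4 for 22375625 reads in control 5. Depth describes counting error only. No pair of libraries agreed within sampling noise (lowest chi-square per gene 8.39).

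limma 3.58.1 in R 4.3.3 (lmFit, eBayes with trend) compared 5 control with 5 stiripentol libraries over the 12306 of 26335 genes with a mean log2 CPM above 0, with Benjamini-Hochberg adjustment, and an interaction with library cluster (average linkage within each group) was fitted on the same genes. Isoform pairs were compared by two-sided exact permutation tests in Python 3.11.15 (numpy 2.4.6, scipy 1.17.1, pandas 2.3.3). The scripts were tested on simulated data. The deposited unit called for this log-scale test; voom on recovered reads was an alternative, beside leaving out each library, other scalings, filters, pseudocounts, a replicate block and fits by cluster. Positions are from GENCODE M21 on GRCm38, and similar transcripts were sought with blastn 2.17.0+ at 95% identity over 100 bases, which found only genes overlapping the members.

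The 10 genes and all lists were chosen with earlier results of these data known. Genes were named by rule: all 10 genes, the called genes with the 2 largest rises and 2 largest falls of each list, and the 3 closest genes to each called gene. Cab39l, Lamtor2, Asns and Trib3 were called but are outside this rule, and 1 called AMPK substrate is not reported here. Mtor, Tsc2 and Sesn2 were named after their values were seen. Same-numbered libraries did not deviate together (correlation of deviations -0.24 to 0.0612), so the numbers were not taken to pair them.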

Additional observations from a re-analysis of the deposited data

Results flagged for a closer look

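Of 28 groups of 5 libraries examined for a value far from the rest, 3 held one, where chance gives about 1.4. Prkaa2 in stiripentol 1 was at 4.55 log2 CPM, below the other stiripentol libraries. The difference of Prkaa2 and Prkaa1 in stiripentol 2 was -1.46, above the other stiripentol libraries. Control 5 had 22375625 reads, the fewest of the controls.

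The change after stiripentol differed between the clusters of 2 and the clusters of 3 for 6 genes, by the interaction test in limma. The change in the clusters of 2 minus that in the clusters of 3 was -1.13 for Prkaa2, 0.28 for Prkab1, -3.12 for Prkab2, 0.94 for Prkag1, -0.92 for Sesn3 and 0.38 for Stk11 on the log2 scale. With each library left out in turn, the call for Prkaa2 was lost in 9 of 10 fits (limma adjusted p = 0.0670 to 0.164) and that for Prkab1 in 7 of 10 (0.0613 to 0.0965), and the other 4 genes kept it in all 10. The same test passed for 63.3% of all genes tested. The clusters of the groups were matched by size, and controls 1 to 3 also share a normalization, so library cluster and normalization cannot be told apart among the controls.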

How the results depend on the processing

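The main counts were 3 called genes of the 10, 16 called pathway genes and 3414 called genes of all tested. Leaving out each library in turn gave 1 to 3 of the 10 (1 without control 1, control 2 or stiripentol 2), 7 to 18 pathway genes and 2389 to 3320 of all genes. With the replicate block these were 2 of the 10 (Prkaa2 and Sesn1), 10 and 2082; with a term for the library cluster 4, 38 and 6244; in the clusters of 3 alone 6, 48 and 7959; in the clusters of 2 alone 9, 51 and 8884. In alternatives chosen after seeing the data, stiripentol 1 and 2 against all controls gave 5, 37 and 6313. All stiripentol libraries against controls 1 to 3 gave 4, 26 and 4491, and against controls 4 and 5 they gave 1, 10 and 2464. With 1 mean per group and cluster limma called 0, 0 and 0, with 0, 6 and 1116 at an unadjusted p under 0.05. Sesn1 was called in 25 of 26 alternatives, all but this last one. Quantile normalization moved the median log2 change of all genes from -0.06 to 0.05. Under it and voom all 16 pathway genes kept their sign and call, and under median-of-ratios size factors Crtc2, Lamtor5, Mark4 and Tfe3 lost the call. With the replicate block all 16 kept their sign and 7 the call, which Cab39l, Crtc2, Depdc5, Lamtor2, Lamtor5, Mark4, Strada, Stradb and Tfe3 lost. Against controls 4 and 5 also 7 of the 16 kept the call. Strada then kept it, Mark1 lost it, and the other genes lost were the same. The interaction test passed for 4 to 7 of the 10 genes with each library left out and for 6 under quantile normalization, where Prkaa2 did not pass and Prkaa1 did. Without the filter the limma adjusted p of Prkaa2 was 0.0535.

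The balance of Prkaa2 over Prkaa1 was 1.33 to 1.84 with each library left out. Its exact permutation test passed with each control left out and did not pass without stiripentol 1, 2, 3, 4 or 5 (adjusted p = 0.0595 to 0.0714). That test also no longer passed under the replicate block (1.62, adjusted p = 0.0938), arranged within clusters (1.62, adjusted p = 0.05), in the clusters of 3 (2.13, adjusted p = 0.15) and in the clusters of 2 (0.84, adjusted p = 0.5). The block and single-cluster designs cannot reach an adjusted p under 0.05. Arranged within clusters, the unadjusted p was the smallest that design can give. Signs turned for genes and balances that were not called: Prkab2 over Prkab1 (0.32) and Prkab2 (0.13), Sesn3 (0.021) and Stk11 (-0.10) in the clusters of 3; Sesn3 over Sesn1 (-0.12), Prkab1 (0.085) and Prkag1 (0.35) in the clusters of 2; Deptor (-0.046) and Prkab1 (0.0094) against controls 4 and 5; Prkag1 (0.25) with stiripentol 1 and 2; and Stk11 with stiripentol 3 to 5 against all controls (-0.065) and with each library left out (-0.010, without stiripentol 2, to 0.10). The causes were not tested.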
